A study of Mus musculus with 6 samples.

Results

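The enzymes described here are 114 mouse genes of drug and lipid metabolism, out of 24062 genes counted: 76 cytochromes P450 of the Cyp1 to Cyp4 families, 18 UDP-glucuronosyltransferases and 20 soluble glutathione S-transferases. They are the genes whose symbols match set patterns for these families, a choice made with earlier results of these data known. P450 symbols that end in a letter, such as Cyp3a41a, were not taken, so counts by subfamily cover only the genes that matched. PolyA-selected RNA was sequenced from heads of C57BL/6 embryos at embryonic day 8.5, with 2 libraries of each genotype: mutant (Prdm15 tm1a-/-), heterozygous (Prdm15 tm1a+/-) and wild type (Prdm15 tm1a+/+). The tm1a allele is a knockout-first insertion in Prdm15, a zinc finger gene. The protocol in the labels gives 2 heads per genotype. Each library mixes the RNA of all cells that the dissection took. Of the 114 genes, 75 had at least 1 read in any library, 35 had reads in all 6 libraries, and 39 had none. By subfamily, reads were found for 3 of 3 Cyp1, 27 of 49 Cyp2, 2 of 7 Cyp3 and 12 of 17 Cyp4 genes, for 5 of 8 Ugt1a, 1 of 3 Ugt2a and 7 of 7 Ugt2b genes, and for all glutathione transferases but 1 of 4 Gsta and 1 of 4 Gstt genes.

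Cytochromes P450 are heme enzymes of the endoplasmic reticulum that oxidise drugs, steroids, vitamin D and fatty acids. UDP-glucuronosyltransferases then attach glucuronic acid, and glutathione transferases attach glutathione, which makes the products soluble and lets transporters carry them out of the cell. The adult liver carries most of this activity. Before the liver forms, the visceral endoderm of the yolk sac, the epithelium that surrounds the early embryo, performs many liver-like tasks.

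Many of these genes lie in tandem clusters, and close copies can share reads. The mu class of glutathione transferases occupies 1 stretch of chromosome 3, from Gstm5 at chr3:107895854-107898685 to Gstm4 at chr3:108030571-108045179 (GRCm38). Gstm1 and Gstm3 had 89.4% identical coding bases, whereas Gstm1 and Gstm5 had 71.6%. The first 4 sequences below are 60 coding bases, 203 to 262 counted from the start codon of Gstm1, where the 7 mu genes differ least. They are printed because the genes are most alike here, on the coding strand of each gene, with capitals at each base that differs from Gstm1.
Gstm1: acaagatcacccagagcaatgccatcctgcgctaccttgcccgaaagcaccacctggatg
Gstm3: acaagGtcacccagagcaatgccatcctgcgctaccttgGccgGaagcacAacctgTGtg
Gstm4: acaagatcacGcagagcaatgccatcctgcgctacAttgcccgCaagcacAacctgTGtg
Gstm5: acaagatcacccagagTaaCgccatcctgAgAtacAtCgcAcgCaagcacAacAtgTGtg

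The next 4 are coding bases 318 to 377, where windows of this length differ most between the mu genes.
Gstm1: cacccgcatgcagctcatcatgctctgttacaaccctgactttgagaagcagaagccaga
Gstm3: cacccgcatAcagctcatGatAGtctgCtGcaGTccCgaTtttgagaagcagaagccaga
Gstm4: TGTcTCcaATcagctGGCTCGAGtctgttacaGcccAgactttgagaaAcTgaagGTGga
Gstm5: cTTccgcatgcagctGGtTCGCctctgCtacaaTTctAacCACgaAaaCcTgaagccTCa

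Across whole transcripts, no stretch of 50 bases in Gstm4 or Gstm5 occurred in a transcript of another gene, against 23.1% of stretches in Gstm1 and 28.8% in Gstm3. Those of Gstm3 were shared most with the predicted gene Gm8834. The Ugt1a genes are built in another way. Each has its own first exon, which sets what the enzyme binds, joined to 4 exons that all of them share, the first at chr1:88215044-88215175 on the plus strand (GRCm38). The junctions below show the last 30 bases of the own exon in lower case and the first 30 shared bases in capitals.
Ugt1a1: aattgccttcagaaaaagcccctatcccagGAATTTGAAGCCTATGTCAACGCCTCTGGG
Ugt1a6a: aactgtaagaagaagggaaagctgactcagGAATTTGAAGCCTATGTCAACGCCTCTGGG
Ugt1a7c: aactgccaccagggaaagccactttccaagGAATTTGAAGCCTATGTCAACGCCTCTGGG

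Reads that fall wholly in the capitals and in the shared bases beyond fit every Ugt1a gene. The counts of single Ugt1a genes thus rest on how the counter treated reads in the shared exons. How it was run is not given in the sources used here. All 50-base stretches of Ugt1a6a also occurred in a transcript annotated to another Ugt1a gene, as did 40.9% of those of Ugt1a7c, and the level of a single Ugt1a gene is therefore uncertain.

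The libraries held 39068327 and 29412227 reads assigned to genes in mutant heads, 31236970 and 29570459 in heterozygous heads, and 40439234 and 34656271 in wild-type heads, so that 3 reads equal 0.0742 to 0.102 CPM, the unit of reads scaled to library size. The count files attached to mutant replicate 1 and wild-type replicate 2 bear each other's titles. Counts were taken by title: each count file by title had its zeros at the same genes as the deposited RPKM column (reads scaled by gene length and library size) of that title, whereas the file titled mutant replicate 1 differed at 1646 genes from the column of wild-type replicate 2. With the files as attached, 0 enzymes and 0 genes in all passed in any comparison by edgeR's quasi-likelihood test (in mutant against wild type, 318 genes had an unadjusted p under 0.05), so all that follows depends on this assignment. Prdm15 itself stood at 26.6 and 32.0 CPM in mutant, 28.3 and 31.8 in heterozygous and 35.2 and 32.6 in wild-type libraries (mutant against wild type, log2 fold change -0.21, adjusted p = 0.221). An insertion allele need not lower the count over the whole gene, so this count does not check the genotype labels. By Xist, the RNA of the inactive X, both mutant libraries and wild-type replicate 2 were female (1100.4 to 1314 CPM), while both heterozygous libraries and wild-type replicate 1 were at 0.266 to 0.354 CPM. Sex and genotype therefore cannot be told apart in mutant against heterozygous.

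Tissue markers also moved with genotype. For the counts below, 17.1% of all genes tested passed as higher and 13.6% as lower in mutant heads than in wild type. In heterozygous heads 6.03% passed as higher and 0.533% as lower. Summed over 18 markers of yolk sac visceral endoderm, such as Afp, Ttr and Apob, mutant libraries had 5607 and 4694 CPM, heterozygous libraries 3128 and 2266, and wild-type libraries 168 and 175. Most of the wild-type sums was Lrp2, at 149 and 154 CPM (log2 fold change 1.06 in mutant). The median log2 fold change of the 18 was 8.28 in mutant and 7.35 in heterozygous heads. All 18 passed as higher in mutant and 16 in heterozygous heads than in wild type; Apoa4 alone was at 0, in wild-type replicate 1. Afp had 484 and 365 CPM in mutant, 155 and 140 in heterozygous and 0.169 and 0.683 in wild-type libraries. Summed heart markers (15 genes) stood at 2258 and 1286 CPM in mutant, 1843 and 2929 in heterozygous and 258 and 128 in wild-type libraries, and 12 of 14 tested passed as higher in mutant heads. Summed surface ectoderm markers (8 genes) stood at 1275 and 1124 CPM in mutant, 907 and 705 in heterozygous and 507 and 514 in wild-type libraries. In mutant heads 3 passed as higher (Krt18, Krt8 and Cdh1) and 2 as lower (Tfap2a and Trp63). The median log2 fold change of the 8 was 0.18. Summed neural progenitor markers (13 genes) stood at 615 and 689 CPM in mutant, 853 and 1000.2 in heterozygous and 1157 and 1080.4 in wild-type libraries, with 9 lower and 0 higher in mutant heads. Trunk and tailbud markers (12 genes) summed to 100.6 and 226 CPM in mutant, 57.1 and 72.5 in heterozygous and 43.8 and 15.6 in wild-type libraries, with 5 of 10 tested higher in mutant heads. Head mesenchyme markers (8 genes) summed to 435 and 507 CPM in mutant, 398 and 388 in heterozygous and 289 and 314 in wild-type libraries, with 6 higher in mutant heads. Decidua, erythroid and trophoblast sums also differed between the 2 libraries of a genotype. Decidua markers summed to 164 and 264 CPM in mutant, 111 and 123 in heterozygous and 49.2 and 502 in wild-type libraries. Erythroid markers summed to 34.4 and 15.3 CPM in mutant, 8.39 and 243 in heterozygous and 176 and 259 in wild-type libraries. Of the 9 erythroid markers, 1 passed as lower in mutant heads (Hbb-y, log2 fold change -5.34) and 0 as higher. Trophoblast markers summed to 235 and 149.7 CPM in mutant, 91.0 and 78.4 in heterozygous and 19.7 and 72.3 in wild-type libraries. Most of the mutant sum was Hand1, also on the heart list, the only 1 of 4 tested that passed as higher in mutant heads. The other 3 did not pass, with log2 fold changes of 1.24 for Ascl2, -3.53 for Prl3d1 and -3.19 for Prl2c2. Endothelium markers lay between 232 and 356 CPM in all 6. The part of these tissues in the results on the enzymes was not tested. In whole heads, fewer cells of a type and less RNA per cell cannot be told apart.

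Per kilobase, the glutathione transferases made up most of the enzyme RNA, with 90.9% to 93.8% of the summed RPKM of all 114 genes in each library. Their sum was 272 and 245 RPKM in mutant, 218 and 210.2 in heterozygous and 203 and 211 in wild-type libraries. The P450 sum was 23.3 and 22.8 RPKM in mutant, 18.4 and 16.6 in heterozygous and 13.8 and 13.9 in wild-type libraries. The glucuronosyltransferase sum was 1.96 and 1.64 RPKM in mutant and 1.54 and 1.22 in heterozygous libraries, against 0.0242 and 0.0259 in wild type. All 3 families thus had their highest sums in the mutant libraries, and the glucuronosyltransferases were near 0 in wild type.

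**Figure D1:**
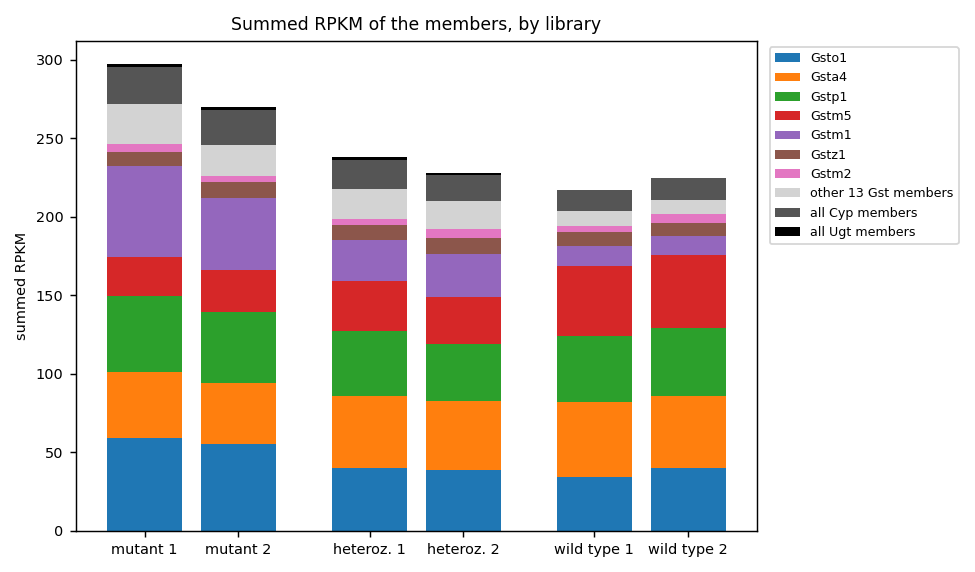
Summed RPKM in each library as a stacked bar from 0, mutant left of heterozygous and wild type, with the 7 leading glutathione transferases in colour, the other 13 in light grey, all P450s in dark grey and all glucuronosyltransferases in black at the top. The Gstm1 segment is widest in the mutant bars (mean 51.9 RPKM, against 12.3 in wild type), and the Gstm5 segment is narrower in the mutant bars (25.6 RPKM, against 45.8 in wild type).

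The order of the leading genes differed between the genotypes. In mutant heads the highest mean levels were Gsto1 at 57.1 RPKM, Gstm1 at 51.9 and Gstp1 at 47.0. In heterozygous heads they were Gsta4 at 44.7, Gsto1 at 39.6 and Gstp1 at 38.8. In wild-type heads they were Gsta4 at 46.8, Gstm5 at 45.8 and Gstp1 at 42.3, while Gstm1 stood at 12.3 RPKM. Among the P450s, Cyp4f16 led in 5 libraries and Cyp2s1 in mutant replicate 1, at 5.15 RPKM. Gstp1 shares 62.3% of its 50-base stretches, most often with Gstp2, and its level is uncertain. Cyp4f16 shares 26.5%, most with Cyp4f37, so part of its count is uncertain too.

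Enough reads for a test were found for 33 of the 114 genes. In mutant against wild-type heads, 16 rose and 2 fell, while 15 did not pass (edgeR quasi-likelihood test, Benjamini-Hochberg adjusted p under 0.05 over 15187 genes). Over all genes tested 30.6% passed, 17.1% higher and 13.6% lower. The 16 were 7 P450s, 3 glucuronosyltransferases and 6 glutathione transferases. Libraries of the 2 genotypes did not overlap, with mutant higher, for 21 enzymes (34.9% of all genes tested) and with mutant lower for 5 (36.1%). Of the 33, 9 had under 10 reads in each wild-type library and entered the test through the other genotypes; 8 of these 9 passed as higher, a direction the filter favours. Among the other 24, 8 passed as higher and 2 as lower. Their log2 fold changes had a median of 0.22, and those of all genes tested one of -0.02. Of the tested enzymes, 4 had a mean under 1 CPM and did not pass in any comparison: Cyp2j9, Cyp4b1, Cyp4f39 and Gstm7.

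**Figure D2:**
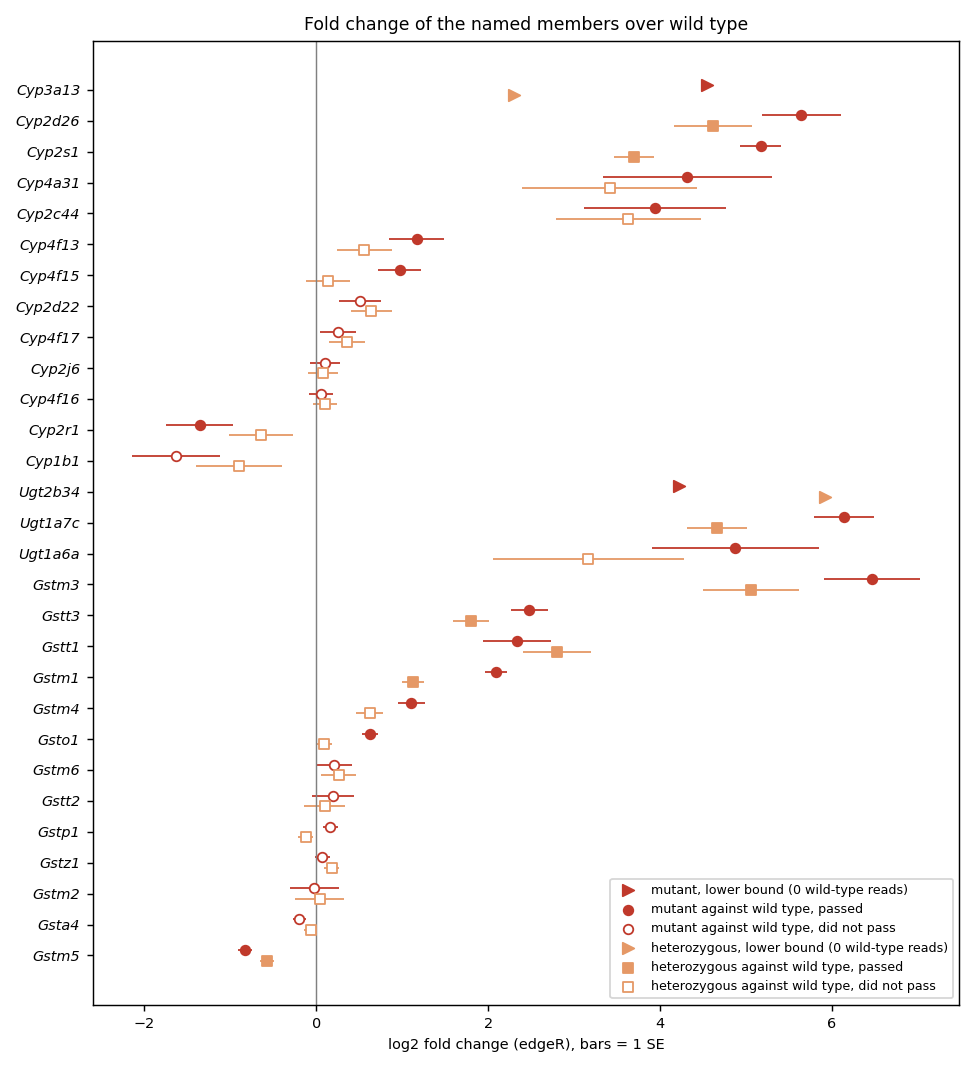
Log2 fold change of the 29 enzymes with a mean of at least 1 CPM or a passed test, for mutant (circles) and heterozygous (squares) against wild type, with bars of 1 standard error. Filled marks passed the test, open marks did not, and triangles are lower bounds for Cyp3a13 and Ugt2b34, which had 0 wild-type reads. Most filled marks lie right of 0, with Gstm5 and Cyp2r1 to the left.

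The P450 with the most reads among those that rose was Cyp2s1 (chr7:25802469-25816525), a P450 expressed mainly outside the liver. It had 13.6 and 10.3 CPM in mutant and 4.41 and 4.19 in heterozygous libraries, against 0.315 and 0.341 in wild type. The genotypes did not overlap. The log2 fold change over wild type was 5.17 ± 0.24 (SE, adjusted p = 0.000308) in mutant and 3.70 ± 0.23 (adjusted p = 0.00152) in heterozygous heads. None of its 50-base stretches occurred in another gene.

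Cyp2d26 (chr15:82790107-82794452), of the liver-rich Cyp2d group, had 2.69 and 2.86 CPM in mutant and 1.55 and 1.17 in heterozygous libraries, against 0.0726 and 0.0284 in wild type. With 4 wild-type reads, the read ratio of mutant to wild type was 50.7 (95% exact interval 19.5 to 188) and that of heterozygous to wild type 25.6 (9.64 to 96.3). These intervals, like all intervals and floors given here, cover counting error only. Both differences passed, with adjusted p = 0.00115 in mutant and 0.00598 in heterozygous heads. Cyp2d26 shares 10.5% of its 50-base stretches, most with Cyp2d22. Cyp2d22, of the same subfamily, had 2.05 and 2.21 CPM in mutant, 2.09 and 2.58 in heterozygous and 1.57 and 1.42 in wild-type libraries, and did not pass (adjusted p = 0.163 in mutant, 0.185 in heterozygous).

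Cyp3a13 (chr5:137892933-137925610) belongs to the subfamily that oxidises many drugs in the human liver. It had 0.851 and 1.09 CPM in mutant and 0.193 and 0.201 in heterozygous libraries, and 0 reads in both wild-type libraries. Against a floor of 3 reads over the wild-type libraries together, it was at least 23.4-fold higher in mutant and at least 4.94-fold higher in heterozygous heads. The mutant difference passed (adjusted p = 0.00395). The heterozygous one, on 12 reads, passed as well (adjusted p = 0.0362) but did not pass when any 1 of the 6 libraries was left out, with an adjusted p of up to 0.143.

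Cyp2c44, an arachidonic acid epoxygenase, had 0.426 and 0.477 CPM in mutant and 0.354 and 0.369 in heterozygous libraries, against 0.0484 and 0 in wild type. The read ratio of mutant to wild type was 16.4 (4.17 to 142), which passed (adjusted p = 0.0183), while the heterozygous difference did not (adjusted p = 0.0651). Cyp4a31, of the fatty acid omega-hydroxylases, had 0.585 and 1.16 CPM in mutant and 0.354 and 0.570 in heterozygous libraries, against 0 and 0.0853 in wild type. Its read ratio of mutant to wild type was 20.5 (6.65 to 102, adjusted p = 0.0237; heterozygous against wild type 0.117), and it shares 21.8% of its 50-base stretches, most with Cyp4a32. The mutant calls rest on few reads: that of Cyp2c44 was lost without mutant replicate 1, mutant replicate 2 or wild-type replicate 2 (adjusted p up to 0.0776). That of Cyp4a31 was lost without either mutant library, heterozygous replicate 2 or wild-type replicate 1 (up to 0.0982).

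In the Cyp4f group, whose enzymes hydroxylate fatty acids and leukotrienes, the changes were smaller. Cyp4f15 had 6.60 and 7.43 CPM in mutant, 4.77 and 3.12 in heterozygous and 3.94 and 3.21 in wild-type libraries (mutant against wild type, log2 fold change 0.97, adjusted p = 0.0363). Cyp4f13 had 2.24 and 2.11 CPM in mutant, 1.61 and 1.24 in heterozygous and 0.774 and 1.17 in wild-type libraries (1.17, adjusted p = 0.0397). Heterozygous and wild-type libraries overlapped for Cyp4f15 and lay apart for Cyp4f13. Cyp4f16 and Cyp4f17 did not pass (log2 fold change 0.05 and 0.25), and neither did Cyp2j6 (0.10), with 4.31 to 5.26 CPM in the 6 libraries. The Cyp4f15 call was lost without either mutant or either wild-type library (adjusted p up to 0.140), and that of Cyp4f13 without any 1 of the 6 libraries (up to 0.149).

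The P450 that fell was Cyp2r1 (chr7:114550123-114563048), a vitamin D 25-hydroxylase. It had 0.239 and 0.238 CPM in mutant and 0.386 and 0.402 in heterozygous libraries, against 0.556 and 0.683 in wild type, a log2 fold change of -1.36 ± 0.39 in mutant (adjusted p = 0.0464). The call was lost without any 1 of the 6 libraries (adjusted p up to 0.198). Cyp1b1, which oxidises estrogens and aryl hydrocarbons, had 2.90 and 1.33 CPM in mutant, 2.09 and 4.96 in heterozygous and 6.75 and 6.43 in wild-type libraries. Both mutant libraries lay below both wild-type ones, but the difference did not pass here (log2 fold change -1.63 ± 0.51, adjusted p = 0.0599), while the authors' deposited table gives it a false discovery rate of 0.0145. The aryl hydrocarbon responsive Cyp1a1 had 9 reads in mutant, 6 in heterozygous and 13 in wild-type heads, too few for a test.

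Among the glucuronosyltransferases 3 of 18 could be tested, and all 3 had wild-type reads at or near 0. Ugt1a7c (chr1:88095001-88220002), of the branch that conjugates phenols, had 4.20 and 3.68 CPM in mutant and 1.29 and 1.54 in heterozygous libraries, against 0.0484 and 0.0569 in wild type. The read ratio to wild type was 72.9 (28.1 to 269.6, adjusted p = 0.000504) in mutant and 26.6 (10.002 to 99.7, adjusted p = 0.00254) in heterozygous heads. Its own first exon covers 915 bases, against 2316 bases in the exons after it. In the other Ugt1a genes those exons cover 1311 to 1318 bases, so not all 2316 are shared.

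Ugt2b34 (chr5:86889770-86906937), of the branch that conjugates steroids, had 0.851 and 0.647 CPM in mutant and 2.995 and 1.81 in heterozygous libraries, with 0 reads in both wild-type libraries. It was at least 18.6-fold higher in mutant (adjusted p = 0.00506) and at least 60.5-fold higher in heterozygous heads (adjusted p = 0.00699). Unlike Ugt1a7c, it stood higher in both heterozygous libraries than in both mutant ones, but that difference did not pass (mutant against heterozygous, log2 fold change -1.67 ± 0.41, adjusted p = 0.129). Ugt1a6a had 0.665 and 0.307 CPM in mutant and 0.161 and 0.134 in heterozygous libraries, against 0 and 0.0284 in wild type (read ratio of mutant to wild type 37.3, interval 6.25 to 1515, adjusted p = 0.0160). The call was lost without wild-type replicate 1 (adjusted p = 0.0724), and without mutant replicate 1 the gene had too few reads for a test.

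Most of the other glucuronosyltransferases stayed near the detection limit. Ugt1a1, the bilirubin-conjugating enzyme, had 24 reads in mutant, 5 in heterozygous and 0 in wild-type heads, and Ugt2b35 had 10, 12 and 0. Both were below the read filter. Of the 18 genes, 5 had no read in any library and 8 had 1 to 10 reads in all.

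Glutathione transferases were the best covered family, with reads for 18 of 20 genes and a test for 14. Of these, 6 rose, 1 fell and 7 did not pass in mutant heads, where 17.1% of all genes tested rose and 13.6% fell. The mu cluster held both directions. Gstm1 (chr3:108012250-108017973), a main mu class enzyme of the mouse liver, had 75.5 and 59.3 CPM in mutant and 33.8 and 35.4 in heterozygous libraries, against 16.4 and 15.3 in wild type. The 3 genotypes did not overlap. The log2 fold change over wild type was 2.09 ± 0.13 (adjusted p = 0.00064) in mutant and 1.13 ± 0.13 (adjusted p = 0.0085) in heterozygous heads.

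Gstm5 went the other way, with 22.4 and 24.4 CPM in mutant and 28.9 and 27.1 in heterozygous libraries, against 40.5 and 42.7 in wild type. Its log2 fold change over wild type was -0.83 ± 0.08 (adjusted p = 0.00215) in mutant and -0.57 ± 0.08 (adjusted p = 0.0172) in heterozygous heads. Between Gstm5 and Gstm1 in the cluster lie 4 other mu genes, and in the most variable window printed above the pair differs at 20 of 60 bases. With libraries scaled to the neural progenitor markers, Gstm5 stayed negative and did not pass. The heterozygous call was lost without either heterozygous library or wild-type replicate 2 (adjusted p up to 0.0783).

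Gstm3 (chr3:107963696-107969174) had 6.31 and 3.65 CPM in mutant and 1.90 and 1.84 in heterozygous libraries, against 0.0242 and 0.0853 in wild type. With 4 wild-type reads, the read ratio was 94.3 (36.5 to 348, adjusted p = 0.00139) in mutant and 35.2 (13.4 to 131, adjusted p = 0.00802) in heterozygous heads. In the most variable window it differs from Gstm1 at 10 bases, and it shares 13.8% of its 100-base stretches, most with Gm8834, so part of its count is uncertain. Gstm4 had 10.9 and 9.27 CPM in mutant, 7.31 and 7.10 in heterozygous and 4.98 and 4.38 in wild-type libraries (mutant against wild type, log2 fold change 1.10 ± 0.15, adjusted p = 0.00587; heterozygous 0.62, adjusted p = 0.0788). Gstm2, between Gstm3 and Gstm1, did not pass (-0.02, adjusted p = 0.959), and neither did Gstm6 (0.20, adjusted p = 0.496). Members of 1 cluster thus ranged from -0.83 to 6.46 in log2 fold change.

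**Figure D3:**
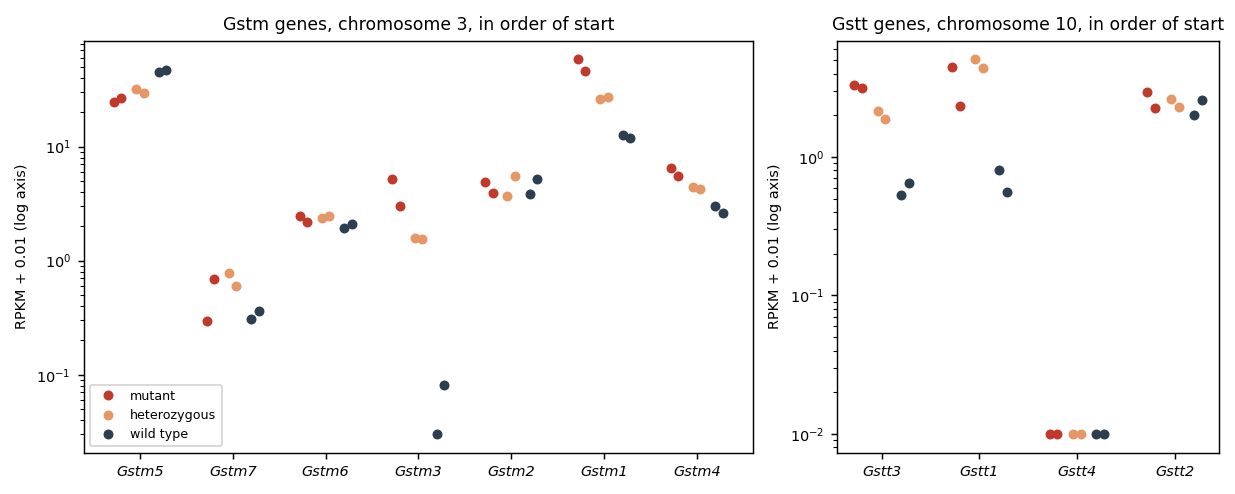
RPKM plus 0.01 on a log axis for each library (dot) of the mu genes along chromosome 3 and the theta genes along chromosome 10, in the order of their starts, with mutant left of heterozygous and wild type. Gstm5 lies lower in mutant than in wild-type libraries, Gstm3, Gstm1, Gstm4, Gstt3 and Gstt1 lie higher, the libraries of Gstm2 overlap, and Gstt4 had no read in any library.

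The theta class, which acts on small halogenated compounds, held a pair that rose. Gstt3 (chr10:75774117-75781422) had 6.17 and 5.89 CPM in mutant and 3.99 and 3.52 in heterozygous libraries, against 0.968 and 1.19 in wild type (log2 fold change 2.48 ± 0.21, adjusted p = 0.00137 in mutant; 1.796 ± 0.21, adjusted p = 0.00929 in heterozygous). It shares 26.0% of its 50-base stretches, most with the predicted gene Gm20441. Gstt1, next to it, had 4.63 and 2.42 CPM in mutant and 5.22 and 4.52 in heterozygous libraries, against 0.823 and 0.569 in wild type (2.33 ± 0.39, adjusted p = 0.00982 in mutant; 2.80 ± 0.40, adjusted p = 0.0167 in heterozygous). Mutant and heterozygous libraries overlapped for Gstt1. Gstt2 in the same cluster did not pass (log2 fold change 0.19 in mutant). In heterozygous heads the Gstt1 call was lost without heterozygous replicate 1 or wild-type replicate 2 (adjusted p up to 0.0860), and the Gstt3 call without heterozygous replicate 1 (0.0551).

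Gsto1, an omega class enzyme that reduces dehydroascorbate, rose in mutant heads. It had 69.1 and 64.0 CPM in mutant, 46.6 and 45.3 in heterozygous and 39.8 and 46.6 in wild-type libraries (mutant against wild type, log2 fold change 0.62 ± 0.09, adjusted p = 0.00739). Heterozygous and wild-type libraries overlapped (log2 fold change 0.09, adjusted p = 0.608). The abundant Gsta4, which conjugates the lipid peroxidation product 4-hydroxynonenal, did not pass, with 40.6 and 37.5 CPM in mutant, 43.9 and 41.7 in heterozygous and 45.7 and 43.8 in wild-type libraries (-0.20 ± 0.08, adjusted p = 0.0973). Its direction turned, to 0.53, when libraries were scaled to neural progenitor markers. Gstp1, the pi class enzyme, and Gstz1, which acts in tyrosine breakdown, did not pass either (0.16 and 0.07).

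**Figure D4:**
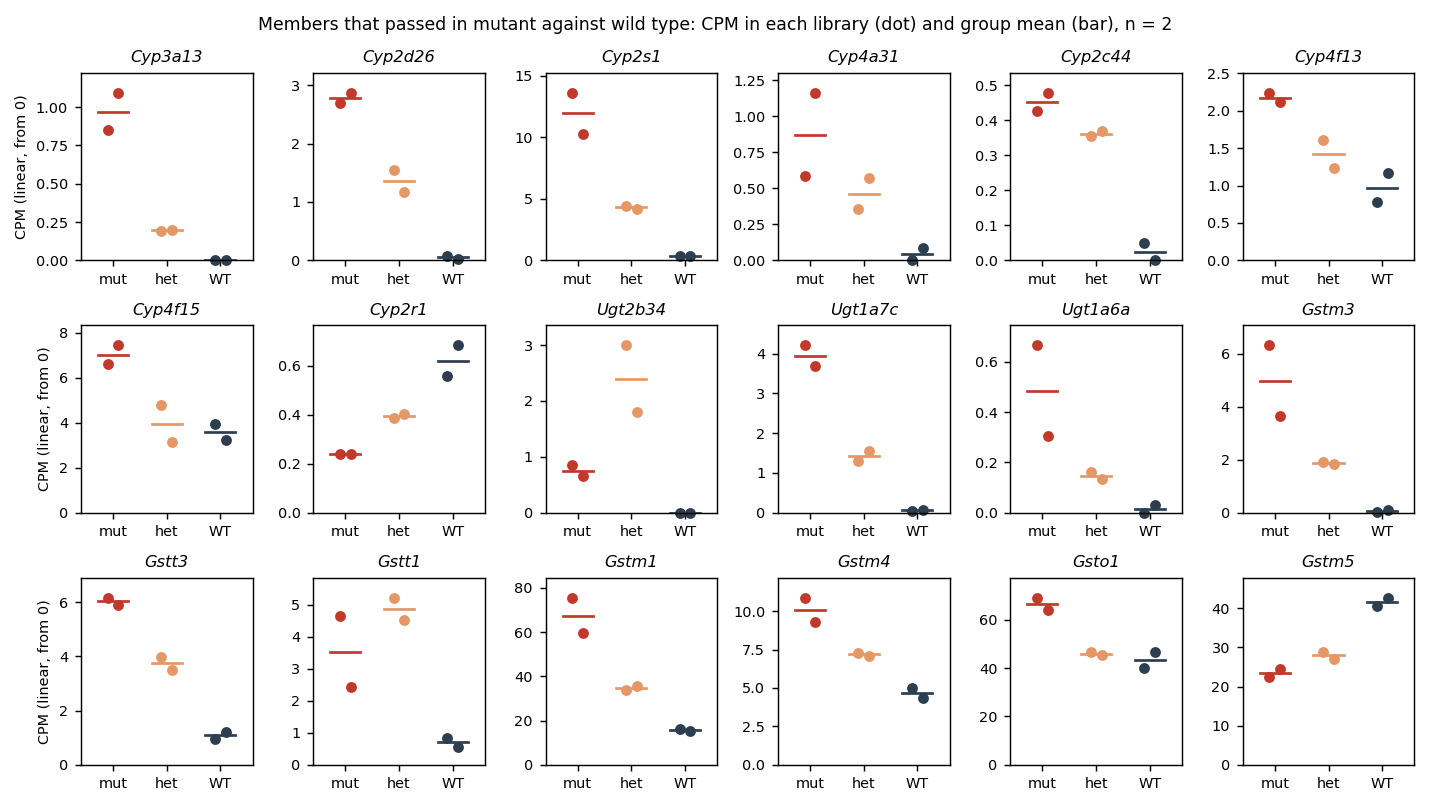
CPM of the 18 enzymes that passed in mutant against wild type, with 1 dot per library and a bar at the mean of 2 libraries, mutant left of heterozygous and wild type, each panel with its own scale from 0. In 16 panels the heterozygous mean lies between the mutant and wild-type means. Ugt2b34 and Gstt1 are highest in heterozygous heads.

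In heterozygous against wild-type heads 9 enzymes rose and 1 fell, while over all genes tested 6.56% passed, 6.03% higher and 0.533% lower. Both heterozygous libraries lay above both wild-type ones for 20 enzymes (28.7% of all genes tested) and below for 4 (27.6%). Of the 9 that rose, 5 were among the 9 enzymes with under 10 reads in each wild-type library, and 4 were among the other 24. The 10 that passed were Cyp2d26, Cyp2s1, Cyp3a13, Ugt1a7c, Ugt2b34, Gstm1, Gstm3, Gstt1, Gstt3 and, lower, Gstm5. All of them also passed in mutant heads in the same direction; both comparisons use the same wild-type libraries. Of the 10, 6 passed with each of the 6 libraries left out in turn (Cyp2d26, Cyp2s1, Gstm1, Gstm3, Ugt1a7c and Ugt2b34). Of the 18 in mutant heads, 12 did. Among libraries of 1 sex, mutant heads against wild-type replicate 2 gave 12 enzymes that rose and 1 that fell (10.4% and 5.45% of all genes tested), and heterozygous heads against wild-type replicate 1 gave 7 that rose and 0 that fell (4.03% and 0.0844% of all genes tested). Each of these leaves 1 wild-type library, assumed to vary like the other groups.

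In mutant against heterozygous heads 0 enzymes passed, against 0.435% of all genes tested, 0.0724% higher and 0.362% lower. Both mutant libraries lay above both heterozygous ones for 16 (27.6% of all genes tested) and below for 6 (26.4%). At an unadjusted p under 0.05 there were 13 of 33, against 21.3% of all genes tested. DESeq2, run on all genes with a read, called 5 of 75 enzymes, against 6.89% of those genes. The lowest adjusted p was 0.0531, for Cyp2s1 (log2 fold change 1.47 ± 0.19) and Gstm1 (0.96 ± 0.13), each with both mutant libraries above both heterozygous ones. Ugt1a7c followed with 1.48 ± 0.25 (adjusted p = 0.0782).

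The authors' deposited table, made from the same libraries, gives 20 of the 114 genes a false discovery rate under 0.05 for mutant against wild type, 18 higher and 2 lower. The share of all genes under that threshold in their table was not counted, so these numbers have no background beside them. Of these 20 genes, 15 are among the 18 above. The authors' table alone lists Cyp1b1, Cyp4x1, Gsta2, Ugt1a1 and Ugt2b35, of which the last 4 lay under the read filter used here. Cyp2r1, Cyp4f13 and Cyp4f15 passed here alone.

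Lists of genes that work with these enzymes are set beside the shares of all genes tested, 17.1% higher and 13.6% lower in mutant heads and 6.03% higher and 0.533% lower in heterozygous heads. Of 21 tested P450 partners and other phase I enzymes, 5 rose and 1 fell in mutant heads, and 2 rose in heterozygous heads, where 30.6% and 6.56% of all genes passed; this is near the share of all genes. The list's median log2 fold change in mutant heads was -0.01, against -0.02 for all genes. Fmo4, a flavin monooxygenase, had 6.97 and 5.01 CPM in mutant and 3.45 and 2.61 in heterozygous libraries, against 0.0726 and 0.114 in wild type (log2 fold change 5.97, adjusted p = 0.000654 in mutant). Ephx2, the soluble epoxide hydrolase, had 13.6 and 14.1 CPM in mutant and 7.99 and 6.47 in heterozygous libraries, against 2.49 and 2.08 in wild type (log2 fold change 2.599, adjusted p = 0.000781 in mutant). Cbr1, a carbonyl reductase, rose in mutant heads (0.54, adjusted p = 0.0124) and Cyb5r3, the cytochrome b5 reductase, fell (-0.30, adjusted p = 0.0190).

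Of 12 other conjugating enzymes tested, 1 rose and 4 fell in mutant heads (all genes, 17.1% and 13.6%), and 1 rose and 1 fell in heterozygous heads (6.03% and 0.533%). The median log2 fold change in mutant heads was -0.20. Among the microsomal glutathione transferases, Mgst3 rose in mutant heads (log2 fold change 1.95, adjusted p = 0.00108) and Mgst1 fell (-1.29, adjusted p = 0.0158). Mgst2, named after its values were seen, had 0.319 and 0.238 CPM in mutant and 0.0484 and 0.0569 in wild-type libraries. It did not pass (2.34, adjusted p = 0.0589). The sulfotransferases Sult2b1, which acts on cholesterol, and Sult4a1, found in brain, fell (-2.11 and -0.50). Of 15 genes of glutathione synthesis and recycling, 6 rose and 3 fell in mutant heads (all genes, 17.1% and 13.6%), and 3 rose in heterozygous heads (6.03%). The median log2 fold change in mutant heads was 0.21. Gpx4, which reduces lipid peroxides, rose (0.76, adjusted p = 0.000825), while Gclc, the catalytic subunit of the rate-limiting step of glutathione synthesis, fell (-0.54, adjusted p = 0.00229). Glrx, glutaredoxin, rose (1.18). The subunits of the cystine exchanger went opposite ways: Slc3a2, which also serves other amino acid transporters, rose (0.93), whereas Slc7a11, the cystine-specific subunit, fell (-3.67, adjusted p = 0.0211). Slc7a11, named after its values were seen, had 0.346 and 0.341 CPM in mutant and 0.193 and 1.34 in heterozygous libraries, against 4.21 and 4.61 in wild type. Of 5 genes of UDP-glucuronate supply, Ugdh, which makes UDP-glucuronate, rose in mutant heads (0.50, adjusted p = 0.0365), the others did not pass, and 0 passed in heterozygous heads.

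Among 22 tested xenobiotic receptors and regulators, 9 rose and 3 fell in mutant heads (all genes, 17.1% and 13.6%), and 6 rose in heterozygous heads (6.03%); the median log2 fold change in mutant heads was 0.60. Hnf4a, a nuclear receptor of liver and visceral endoderm and also 1 of the 18 yolk sac markers, had 98.8 and 79.0 CPM in mutant and 61.8 and 45.3 in heterozygous libraries, against 0.218 and 0.284 in wild type (log2 fold change 8.46, adjusted p = 0.000247 in mutant). Foxa3, a liver and gut endoderm factor, rose (4.55, adjusted p = 0.000664). Nfe2l2, which drives antioxidant genes, had 77.1 and 62.0 CPM in mutant and 48.3 and 46.5 in heterozygous libraries, against 29.3 and 29.3 in wild type (1.25, adjusted p = 0.00165 in mutant). Arnt2, a partner of bHLH-PAS factors, fell (-0.95, adjusted p = 0.00274).

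Of 18 tested efflux and uptake transporters, 9 rose and 1 fell in mutant heads (all genes, 17.1% and 13.6%), and 3 rose in heterozygous heads (6.03%); the median log2 fold change in mutant heads was 0.89. Abcc2, which exports glucuronide and glutathione conjugates, had 43.5 and 33.9 CPM in mutant and 20.7 and 15.6 in heterozygous libraries, against 0.0484 and 0.142 in wild type (log2 fold change 8.67, adjusted p = 0.000259 in mutant). Abcg2, an efflux pump of many tissues, had 94.3 and 92.0 CPM in mutant and 66.7 and 60.4 in heterozygous libraries, against 46.1 and 49.2 in wild type (0.97, adjusted p = 0.00103 in mutant). Abcc5 and Abcc4 rose in mutant heads by 0.68 and 0.69 on the log2 scale.

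Promoters of the enzymes, taken from RefSeq (GRCm38.p6, 250 bases before to 50 after the start, 29 promoters for 23 of the 29 enzymes plotted by fold change), were searched on both strands for TGACNNNGC, the core of the antioxidant response element, and TNGCGTG, the core of the xenobiotic response element. The first was found in 2 promoters, those of Gstm5 and Cyp2j6, against 12.4% of 32851 mouse promoters. The second was found in 0, against 5.07%. The match of Gstm5, at chr3:107895797-107895835 on the plus strand, is printed with the motif in capitals because Gstm5 is the mu gene that fell.
Gstm5: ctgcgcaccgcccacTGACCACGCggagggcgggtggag
The motif begins 42 bases before the start. A match of letters is not a binding site, and the other promoters lack these letters only within this window.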

How the data were processed

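The authors deposited 1 table of raw gene counts per library. Per the file headers, a series-wide table holds their RPKM, log2 fold changes with log2 mean CPM, the likelihood ratio as a score, and p-values with FDR values. The submitters' processing notes name TopHat2 2.0.11 and HTSeq 0.6.1p2 beside edgeR 3.8.6, the mm10 build and, for read handling, cutadapt 1.8, Trim Galore 0.4.0, FastQC 0.11.2 and bcl2fastq 2.17. Annotation, counting mode, strand setting and read length: not given in the sources used here. Library sizes leave out 5 summary lines per file, which hold 8.93% to 10.5% of reads outside any feature, 12.7% to 14.5% without a unique alignment and 1.04% to 1.08% that were ambiguous.

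The main test on counts by title used edgeR 4.0.16 (R 4.3.3; TMM, filterByExpr by group, glmQLFit and glmQLFTest, 1 fit over the 6 libraries, leaving 3 residual degrees of freedom). P-values were adjusted by Benjamini-Hochberg over all genes tested, with a threshold of 0.05, and each SE was taken as the size of the log2 fold change over the root of its F statistic. CPM of single genes uses TMM library sizes; list sums and read ratios use library totals. Where a wild-type group had 0 reads, the fold was taken against 3 reads over the group. Ratios of summed reads on 1 to 4 wild-type reads carry exact 95% binomial intervals. RPKM was used to compare levels between genes. Transcripts and coding bases come from GENCODE M21, promoters and positions of genes from RefSeq on GRCm38.p6; all 114 genes matched by gene ID, 1 under another symbol. Simulated counts of 15187 genes for mutant against wild type held 100 genes changed 2-fold and 100 changed 4-fold. Of these, 57% of 2-fold and 84% of 4-fold changes were recovered, with 12 false among 153 calls. In the data 30.6% of genes passed, far more than were changed in the simulation, so these rates need not hold there.

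Named enzymes have a mean of at least 1 CPM or passed in any comparison; of each pathway list, up to 4 genes with the smallest p in mutant against wild type are named, and the low-read genes named beside them were chosen after their values were seen. The enzymes and lists were chosen with earlier results of these data known. Nothing in the labels says that libraries came from separate litters, so p-values reflect only differences among these 6 libraries, which may be technical. Alternatives were other assignments of files, normalizations, tools, filters, units (limma 3.58.1, DESeq2 1.42.0), scaling and leaving out each library.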

Additional observations from a re-analysis of the deposited data

How the results depend on the processing

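With the files as attached, 0 enzymes passed in mutant against wild type and 0 in heterozygous against wild type. Under that assignment, log2 fold changes of mutant against wild type turned for Cyp2c44 (-0.014), Cyp2r1 (0.21), Cyp2s1 (-0.39), Cyp4f16 (-0.13), Gstm1 (-0.30), Gstm2 (0.075), Gstm3 (-0.77), Gstm4 (-0.22), Gstm5 (0.094), Gstm6 (-0.049), Gstp1 (-0.038), Gstt1 (-0.87), Gstt2 (-0.032), Gstt3 (-0.012), Gstz1 (-0.0081), Ugt1a6a (-0.999), Ugt1a7c (-0.19) and Ugt2b34 (-0.41). Those of heterozygous against wild type turned for Cyp2d26 (-0.018), Cyp2s1 (-0.69), Cyp3a13 (-1.09), Gstm1 (-0.41), Gstm3 (-0.76) and Ugt1a7c (-0.58), and mutant against heterozygous for Gstm3 (-0.011). Scaling to neural progenitor markers shifted the median log2 fold change over all genes to 0.71 (mutant to wild type), 0.24 (heterozygous to wild type) and 0.48 (mutant to heterozygous). Under it 27 enzymes passed in mutant against wild type, 27 higher and 0 lower (of all genes tested, 73.7% passed). The heterozygous comparison with wild type gave 12, 12 higher and 0 lower (9.92% of all genes), and that of mutant with heterozygous heads gave 14 of 33, where 49.5% of all genes passed. Gsta4 (0.53) and Gstm2 (0.70) turned, and relative to that shift both stayed below the median gene. In mutant against heterozygous, where 0 passed, DESeq2 called 5 of 75 enzymes (6.89% of all genes tested). The likelihood ratio test called 6 of 33 (5.27% of all genes tested). The fit with no filter called 2 of 75 (0.944%) and the fit of only these groups 2 of 31 (0.723%). With 1 library left out in turn, 1 group held 1 library, and only log2 fold changes are compared here. Every enzyme that had passed over wild type kept its direction wherever it was tested, in mutant and in heterozygous heads. In mutant against wild type Gstm1 ranged from 1.91 to 2.24 and Gstm5 from -0.905 to -0.762. Calls lost in these fits are given above with each gene. Among enzymes that had not passed, the range over these fits crossed 0 for Cyp2j6 (-0.024 to 0.24), Cyp4f16 (-0.046 to 0.14), Gstt2 (-0.0051 to 0.37) and Gstm2 (-0.22 to 0.20). Under the other size factors, tools, units and filters, 33 to 75 enzymes were tested. In mutant against wild type 18 to 21 of them passed, where 21.6% to 30.2% of all genes tested did. Run on all genes with a read, DESeq2 called 17 of 75 enzymes higher and 2 lower (14.9% and 11.4% of all genes). Without the filter, edgeR called 19 and 2 of 75 (13.0% and 10.6%) and limma 18 and 3 (12.5% and 9.06%). In either direction the DESeq2 count of 19 of 75 was near the share of all genes (26.3%), unlike the 18 of 33 of the main fit (30.6%). In heterozygous against wild type 9 to 12 passed, where 3.99% to 10.4% of all genes tested did. The cause of these differences was not tested. No paired analysis was possible because the labels give the libraries no replicate numbers shared between genotypes. Depth limits the enzymes with few reads: at 0.0742 to 0.102 CPM for 3 reads, the 39 genes with no read are not shown to be silent.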
